A study of Mus musculus with 6 samples.

Results

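The 10 genes described here (Arc, Nptx1, Nptx2, Nrn1, Plk2, Ptgs2, Inhba, Rheb, Rgs2 and Rgs4) encode proteins through which neuronal activity is known to change synapses. They were chosen by name, as the matching rows of both deposited tables, and all 10 of the 10 were found among 23235 genes. All 10 passed the authors' filter on low values in both tables and so have a test in each. The series measured RNA of primary mouse neurons, labelled cortical/hippocampal, taken from embryos at day 15 and grown for 17 days. The 3 groups of 2 libraries were HDAC2 knockdown (cultures given HDAC2 shRNAs), Sp3 knockdown (cultures given Sp3 shRNAs) and control. On day 5 all cultures received 1 uM AraC, which kills dividing cells, and on day 12 a lentivirus that expresses short hairpin RNA, and the labels name neither the hairpin of the controls nor any stimulus. HDAC2 is a histone deacetylase of corepressor complexes, Sp3 is a zinc finger factor that recognises GC boxes, and the series asks whether both regulate a common set of genes.

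When neurons fire, calcium entry switches on immediate early genes. Some encode transcription factors, and others, the effectors, act at the synapse itself. Arc drives the removal of AMPA-type glutamate receptors from the surface. The pentraxins Nptx1 and Nptx2 are secreted and cluster these receptors, and Nrn1 (neuritin, CPG15) is a surface-anchored factor that promotes growth of dendrites and maturation of synapses. Inhba encodes a subunit of activin, Ptgs2 (COX-2) makes prostaglandin precursors, Plk2 is a kinase that weakens overactive synapses, and Rheb is a small GTPase that activates mTOR. Rgs2 and Rgs4 speed the switching-off of G protein signals.

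Each group has 1 FPKM value (fragments scaled to transcript length and library size) in the authors' deposited tables and no value per library, so no spread within a group can be given. Whether the 2 libraries of each group stem from independent cultures is not stated, and p-values may then measure technical spread only. Genes are called where the authors' q was under 0.05. The error of a log2 fold change is the standard error implied by the authors' test statistic. The median log2 fold change over tested genes of at least 1 FPKM was 0.32 in HDAC2 knockdown and -0.13 in Sp3 knockdown. Log2 fold changes below are therefore given relative to that median gene, with p-values adjusted by the Benjamini-Hochberg method over 13569 and 13619 tested genes. The targets were lower in their own knockdown: the authors' value for Hdac2 was 12.3 FPKM in HDAC2 knockdown against 49.4 in control, and that for Sp3 was 5.82 FPKM in Sp3 knockdown against 15.5 in control. Sp3 had 26.7 FPKM in HDAC2 knockdown and Hdac2 had 38.8 FPKM in Sp3 knockdown. The authors' deposited table called Sp3 higher in HDAC2 knockdown, and it passed relative to the median gene too (0.47 ± 0.09). Hdac2 was called lower in Sp3 knockdown (q = 0.00598 in the authors' deposited table), while its relative value of -0.22 ± 0.11 did not pass. Both comparisons share the control libraries.

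Promoter sequence from RefSeq (GRCm38.p6, from 250 bases before to 50 after the start of the gene) was matched for 6 of the 10 genes, Plk2, Ptgs2, Inhba, Rheb, Rgs2 and Rgs4. The 4 printed here are those of the 3 matched genes that the authors' q called in at least 1 knockdown and that of Plk2, which holds the one full cAMP response element found. Capitals mark the GC box GGGCGG, the element Sp factors bind, and TGACG, the core of the cAMP response element (CRE), on either strand.
Ptgs2, chr1:150099781-150100080, plus strand: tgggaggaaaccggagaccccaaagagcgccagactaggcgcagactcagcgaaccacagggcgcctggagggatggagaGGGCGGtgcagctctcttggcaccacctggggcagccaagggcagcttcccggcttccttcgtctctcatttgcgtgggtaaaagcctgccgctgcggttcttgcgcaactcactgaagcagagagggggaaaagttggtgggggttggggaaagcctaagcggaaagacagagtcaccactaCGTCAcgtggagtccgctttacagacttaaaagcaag
Inhba, chr13:16011601-16011900, plus strand: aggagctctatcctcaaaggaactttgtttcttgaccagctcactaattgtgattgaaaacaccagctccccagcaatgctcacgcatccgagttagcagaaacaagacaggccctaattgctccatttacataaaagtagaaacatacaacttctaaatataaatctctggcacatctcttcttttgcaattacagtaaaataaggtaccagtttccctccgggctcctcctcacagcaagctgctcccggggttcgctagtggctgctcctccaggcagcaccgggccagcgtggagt
Rgs2, chr1:144004100-144004399, minus strand: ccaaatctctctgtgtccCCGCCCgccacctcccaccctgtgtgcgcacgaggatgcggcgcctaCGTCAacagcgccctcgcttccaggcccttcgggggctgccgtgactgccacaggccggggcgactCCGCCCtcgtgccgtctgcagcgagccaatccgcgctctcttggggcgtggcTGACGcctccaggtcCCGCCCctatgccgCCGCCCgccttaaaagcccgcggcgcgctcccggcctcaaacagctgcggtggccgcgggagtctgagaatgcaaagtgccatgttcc
Plk2, chr13:110394794-110395093, plus strand: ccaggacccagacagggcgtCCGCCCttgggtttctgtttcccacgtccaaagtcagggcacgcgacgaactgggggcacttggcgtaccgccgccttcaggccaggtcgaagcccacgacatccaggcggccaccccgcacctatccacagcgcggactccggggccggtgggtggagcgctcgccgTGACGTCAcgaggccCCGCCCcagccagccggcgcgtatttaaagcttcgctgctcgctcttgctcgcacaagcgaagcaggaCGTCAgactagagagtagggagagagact

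The GC box stood 4 times in the Rgs2 promoter, 2 times in that of Plk2 and 1 time each in those of Ptgs2 and Rheb, and it was not found in those of Inhba and Rgs4. At least 1 GC box was present in 35.7% of all 32851 promoters of this length. The core TGACG was found in 5 of the 6, all but Inhba, against 20.8% of all promoters. The full CRE, TGACGTCA, which contains the core on each strand, was found in Plk2 and in 1.79% of all promoters. TATAAA, searched on both strands, was found in Inhba and Rgs4 and in 13.6% of all promoters. TGAGTCA, an AP-1 site (5.2% of promoters), and the CArG box bound by serum response factor (1.63%) were in none of the 6.

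In HDAC2 knockdown Arc had the largest change of the 10 genes, at 16.4% of its control level, and Ptgs2 was lower too. In Sp3 knockdown Arc and Rgs2 were lower, and Nptx2, Nrn1, Ptgs2 and Inhba were higher. The authors' deposited table for HDAC2 called 2 of the 10 lower (Arc and Ptgs2) and 1 higher (Inhba), where it called 3.6% of all tested genes lower and 24.6% higher. Relative to the median gene 3 were lower (Arc, Nptx2 and Ptgs2) and 0 higher, against 7.55% and 10.1% of all tested genes. The authors' deposited table for Sp3 called 2 lower (Arc and Rgs2) and 4 higher, where it called 26.1% and 13.2% of tested genes. Relative to the median gene 2 were lower and 5 higher, Rheb being added, against 17.5% and 20.1%. The median of the 10 relative log2 fold changes was -0.58 in HDAC2 knockdown and 0.21 in Sp3 knockdown. The quartiles of all tested genes were -0.31 and 0.32 in HDAC2 knockdown and -0.29 and 0.28 in Sp3 knockdown.

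**Figure D1:**
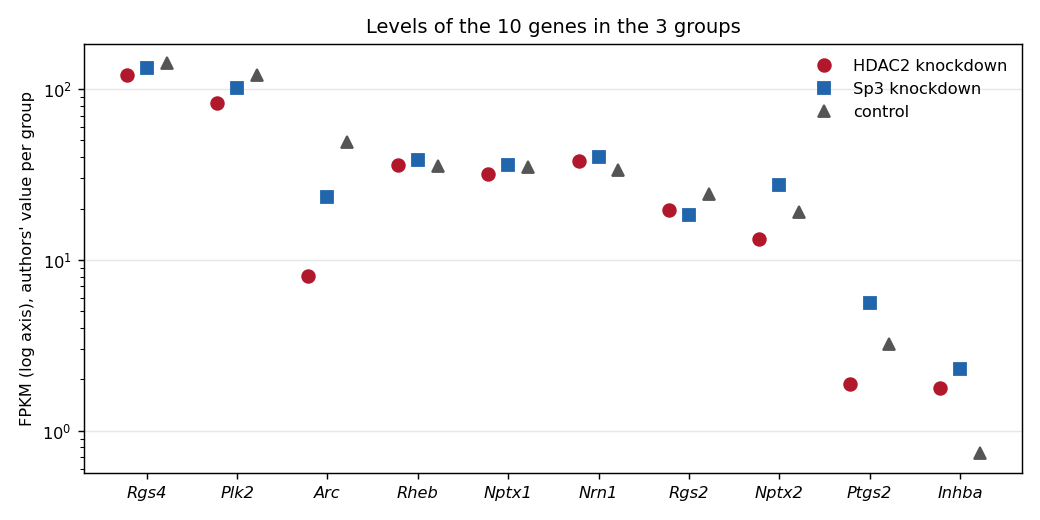
FPKM of each of the 10 genes in HDAC2 knockdown (red circles), Sp3 knockdown (blue squares) and control (grey triangles), on a log axis, 1 value per group as the authors deposited it, with genes ordered by control level. Levels run over 0.738 to 141 FPKM in control, and Arc spreads most, over 8.07 to 49.2 FPKM.

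FPKM is scaled to length, so levels can be compared between genes. The order of the 10 was much alike in the 3 groups apart from Arc. Rgs4 was highest in each, at 121, 133 and 141 FPKM in HDAC2 knockdown, Sp3 knockdown and control, and Plk2 followed in each. Arc ranked 8 of 10 in HDAC2 knockdown and 7 in Sp3 knockdown, against 3 in control. Ptgs2 and Inhba were the lowest pair in every group. Nrn1, Rheb and Nptx1 lay within 31.7 to 40.3 FPKM in all 3 groups, and without values per library the order among them cannot be told from error.

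Arc (chromosome 15, 74499512 to 74503000, mm9) was lower in both knockdowns. The authors' value was 8.07 FPKM in HDAC2 knockdown and 23.5 in Sp3 knockdown, against 49.2 in control. That is 16.4% and 47.7% of control. The relative log2 fold change was -2.92 ± 0.25 in HDAC2 knockdown (adjusted p = 1.58e-29) and -0.94 ± 0.13 in Sp3 knockdown (adjusted p = 1.92e-12), by a normal test with the authors' standard errors, which is used throughout for relative values. The authors' deposited tables list q as 0 for both. Among all tested genes Arc stood at percentile 0.119 of the fold changes in HDAC2 knockdown and at 3.88 in Sp3 knockdown. The list of its partners holds 11 measured genes that carry receptors inward with it or govern its turnover. Of these the authors' deposited table called 1 higher and 0 lower in HDAC2 knockdown (relative to the median gene 1 and 1), and 1 higher and 3 lower in Sp3 knockdown (relative, 3 and 1). Dnm2, a dynamin that pinches off endocytic vesicles, was higher in both, by 0.51 ± 0.13 and 0.64 ± 0.08 relative to the median gene. Ube3a, the ubiquitin ligase mutated in Angelman syndrome, was at -0.43 ± 0.06 and -0.09 ± 0.05, and it passed the relative test in HDAC2 knockdown (adjusted p = 3.32e-10), where the authors' deposited table did not call it (q = 0.159), while in Sp3 knockdown only the authors' deposited table called it lower. Camk2b, a calcium-dependent kinase that binds Arc, stood at -0.42 ± 0.52 and 0.21 ± 0.29.

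Of the pentraxins, Nptx2 (Narp; chromosome 5, 145306755 to 145318347) lay on opposite sides of control in the knockdowns. The authors' value was 13.3 FPKM in HDAC2 knockdown and 27.6 in Sp3 knockdown, against 19.2 in control. In Sp3 knockdown it rose, by 0.66 ± 0.10 relative to the median gene (q = 5.26e-06 in the authors' deposited table). In HDAC2 knockdown the relative value was -0.84 ± 0.23 (adjusted p = 0.00337), while q was 0.0696 in the authors' deposited table, so the call of a fall rests on the scaling. Nptx1 (chromosome 11, 119400032 to 119409134) had 31.7, 36.0 and 35.1 FPKM in HDAC2 knockdown, Sp3 knockdown and control. It passed in neither, in the authors' deposited tables or relative to the median gene, while against the median pan-neuronal marker it was called lower in Sp3 knockdown (-0.36). Its relative values were -0.46 ± 0.30, with a 95% interval from -1.05 to 0.13, and 0.17 ± 0.13, with an interval from -0.08 to 0.42. Nptxr, the membrane-bound pentraxin receptor that assembles with both, had 123 and 120 FPKM in HDAC2 and Sp3 knockdown, against 48.4 in control. It rose in Sp3 knockdown (1.44 ± 0.17, q = 1.89e-13 in the authors' deposited table). In HDAC2 knockdown its q was 0.0465 in the authors' deposited table and its relative value 1.03 ± 0.55, adjusted p = 0.206. Among the AMPA receptor subunits that pentraxins bind, Gria3 (0.60 ± 0.12), Gria4 (0.57 ± 0.06) and Gria1 (0.57 ± 0.14) rose in Sp3 knockdown. Gria2, the most abundant, stood at 0.18 ± 0.39 there and was not called. Against the median pan-neuronal marker Gria3, Gria4 and Gria1 stood at 0.06, 0.04 and 0.04 in Sp3 knockdown. Gria4 rose in HDAC2 knockdown too (0.27 ± 0.08, q = 1.87e-12 in the authors' deposited table), where the test of Gria1 failed in the deposited table.

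Nrn1 (chromosome 13, 36817494 to 36826323) had 37.8 FPKM in HDAC2 knockdown and 40.3 in Sp3 knockdown, against 33.7 in control. It rose in Sp3 knockdown, by 0.39 ± 0.10 relative to the median gene (q = 0.0409 in the authors' deposited table, adjusted p = 7.53e-04 relative to the median gene). That call was lost at q under 0.01, and against the median pan-neuronal marker the value was -0.14 and not called. In HDAC2 knockdown the value was -0.15 ± 0.23 relative to the median gene and 0.17 without centring, so its sign turned with the scaling, and neither test passed. Its paralog Nrn1l was near the floor, at 0.444 and 0.329 FPKM against 0.946 in control.

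Inhba (chromosome 13, 16106307 to 16119044), whose dimer is activin A, was the least abundant of the set. It had 1.79 FPKM in HDAC2 knockdown and 2.29 in Sp3 knockdown, against 0.738 in control. In Sp3 knockdown it rose by 1.77 ± 0.46 relative to the median gene (q = 0.00244 in the authors' deposited table), at percentile 99.7 of tested genes. In HDAC2 knockdown the authors' deposited table gave q = 0.0476, and the relative value was 0.96 ± 0.53 with adjusted p = 0.219. With 1 FPKM added to both values the log2 fold changes were 0.68 and 0.92 in HDAC2 and Sp3 knockdown, where they were 1.28 and 1.63 without it. Fst, which encodes the activin antagonist follistatin, had 3.38 and 5.80 FPKM in HDAC2 and Sp3 knockdown against 1.51 in control. It rose in Sp3 knockdown (2.07 ± 0.26), and in HDAC2 knockdown its relative value was 0.84 ± 0.37 (adjusted p = 0.0993, q = 0.00801 in the authors' deposited table). Of 12 tested genes of the activin pathway besides Inhba, the authors' deposited tables called 2 higher and 2 lower in HDAC2 knockdown, and 2 higher and 4 lower in Sp3 knockdown. Relative to the median gene these were 0 and 3, and 4 and 2. Inhbb, the other activin beta subunit gene, passed in neither, at 6.08 and 7.73 FPKM against 7.67 in control. Smad7, an inhibitor of the pathway, was lower in both (-0.94 ± 0.26 and -0.47 ± 0.14). Among the receptors Acvr1b was lower in Sp3 knockdown (-0.55 ± 0.12) and Acvr1 was higher there (0.49 ± 0.09). In HDAC2 knockdown Acvr1c was lower (-1.31 ± 0.29, q = 0.00374 in the authors' deposited table). Acvr1 was lower there relative to the median gene alone (-0.35 ± 0.12), and Acvr2b passed as higher only by the q of the authors' deposited table (0.0103, with a relative value of 0.68 ± 0.33).

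Ptgs2 (chromosome 1, 151947253 to 151955142) was lower in HDAC2 knockdown and higher in Sp3 knockdown. The authors' value was 1.87 FPKM in HDAC2 knockdown and 5.62 in Sp3 knockdown, against 3.22 in control. The relative log2 fold changes were -1.10 ± 0.32 (adjusted p = 0.0052) and 0.93 ± 0.17 (adjusted p = 2.13e-07), by a normal test with the authors' standard errors. The HDAC2 call was close to the threshold without centring, with q = 0.044 in the authors' deposited table, and it was lost when the authors' p-values were adjusted within that table. The constitutive isoform Ptgs1 was too low to be tested, at 0.318 and 0.309 FPKM against 0.149 in control. Of the other genes of the prostaglandin pathway 6 of 12 were tested in HDAC2 knockdown, where the authors' deposited table called 3 higher and 0 lower (relative to the median gene 2 and 0). In Sp3 knockdown 5 were tested, and the authors' deposited table called 0 higher and 2 lower (relative, 1 and 1). Pla2g4a, the phospholipase that releases the substrate of Ptgs2, rose in HDAC2 knockdown (2.62 ± 0.61) at low level, 1.83 FPKM against 0.238 in control. Ptges2, a prostaglandin E synthase, rose there as well (0.81 ± 0.24). Ptger1, a prostaglandin E receptor, fell in Sp3 knockdown (-0.55 ± 0.19).

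Plk2 (chromosome 13, 111185251 to 111191051) had 82.7 FPKM in HDAC2 knockdown and 102 in Sp3 knockdown, against 121 in control. Neither difference passed in the authors' deposited tables or relative to the median gene, while against the median pan-neuronal marker Plk2 was called lower in Sp3 knockdown (-0.65). The relative values, by a normal test with the authors' standard errors, were -0.86 ± 0.36 (95% interval -1.57 to -0.15, adjusted p = 0.083) and -0.11 ± 0.20 (interval -0.50 to 0.27). The paralogs were lower in abundance, at 1.21 to 6.62 FPKM in control for Plk1, Plk3, Plk4 and Plk5, and of these Plk1, a mitotic kinase, fell in Sp3 knockdown (-0.62 ± 0.21). Of the synaptic proteins that Plk2 is known to phosphorylate, Rasgrf1 rose in Sp3 knockdown (0.57 ± 0.09) and Sipa1l1 (SPAR) fell (-0.31 ± 0.12). In HDAC2 knockdown both stood at -0.14, with standard errors of 0.27 and 0.26, and 0 of 7 tested genes of this list was called.

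Rheb (chromosome 5, 24308640 to 24348179) was the steadiest of the set by the deposited values, at 35.9 FPKM in HDAC2 knockdown and 38.5 in Sp3 knockdown, against 35.6 in control. Against the median gene, by a normal test with the authors' standard errors, it stood at -0.30 ± 0.23 (adjusted p = 0.432) and 0.25 ± 0.10 (adjusted p = 0.0443), and the second did not pass in the authors' deposited table (q = 0.403). Against the median pan-neuronal marker Rheb was instead called lower in Sp3 knockdown, at -0.28, so its direction there turned with the scaling. Of 13 other genes of its pathway the authors' deposited tables called 4 higher and 0 lower in HDAC2 knockdown, and 3 higher and 1 lower in Sp3 knockdown. The relative counts were 1 and 1, and 5 and 1. Mtor, the kinase Rheb activates, had 44.0 and 32.7 FPKM against 20.2 in control. It rose in Sp3 knockdown (0.82 ± 0.13), and in HDAC2 knockdown it stood at 0.81 ± 0.41 (adjusted p = 0.181, q = 0.0251 in the authors' deposited table). Tsc2, which switches Rheb off, rose in HDAC2 knockdown (0.30 ± 0.06). Its partner Tsc1 (0.53 ± 0.10) and the mTOR scaffold Rptor (0.47 ± 0.11) rose in Sp3 knockdown.

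Rgs2 (chromosome 1, 145846467 to 145851279) had 19.6 FPKM in HDAC2 knockdown and 18.4 in Sp3 knockdown, against 24.2 in control. It fell in Sp3 knockdown, by a relative log2 of -0.27 ± 0.11 (adjusted p = 0.036, and q = 0.00128 in the authors' deposited table). The larger relative value in HDAC2 knockdown, -0.62 ± 0.24, did not pass (adjusted p = 0.0534, q = 0.339 in the authors' deposited table). Rgs4 (chromosome 1, 171671607 to 171677773) had 121 and 133 FPKM against 141 in control and passed in neither, at -0.53 ± 0.43 (95% interval -1.37 to 0.31) and 0.04 ± 0.26 (interval -0.47 to 0.56). Of 16 other RGS genes tested the authors' deposited tables called 5 higher and 2 lower in HDAC2 knockdown and 5 and 5 in Sp3 knockdown. The relative counts were 1 and 4, and 5 and 4. Rgs17 fell in both (-1.83 ± 0.24 and -0.38 ± 0.09), Rgs5 rose in HDAC2 knockdown (1.75 ± 0.54) and Rgs20 fell in Sp3 knockdown (-0.94 ± 0.21). The level of Rgs5 was low, at 1.74 FPKM in HDAC2 knockdown against 0.416 in control. It is also in the list of endothelial, mural and meningeal markers. Of the G protein alpha subunits, Gna11 (1.24 ± 0.10) and Gnaq (0.58 ± 0.12), of the class on which Rgs2 acts, rose in Sp3 knockdown, and Gnai2 fell (-0.48 ± 0.11). In HDAC2 knockdown the authors' deposited table called these 3 higher, and relative to the median gene 0 of 6 passed.

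**Figure D2:**
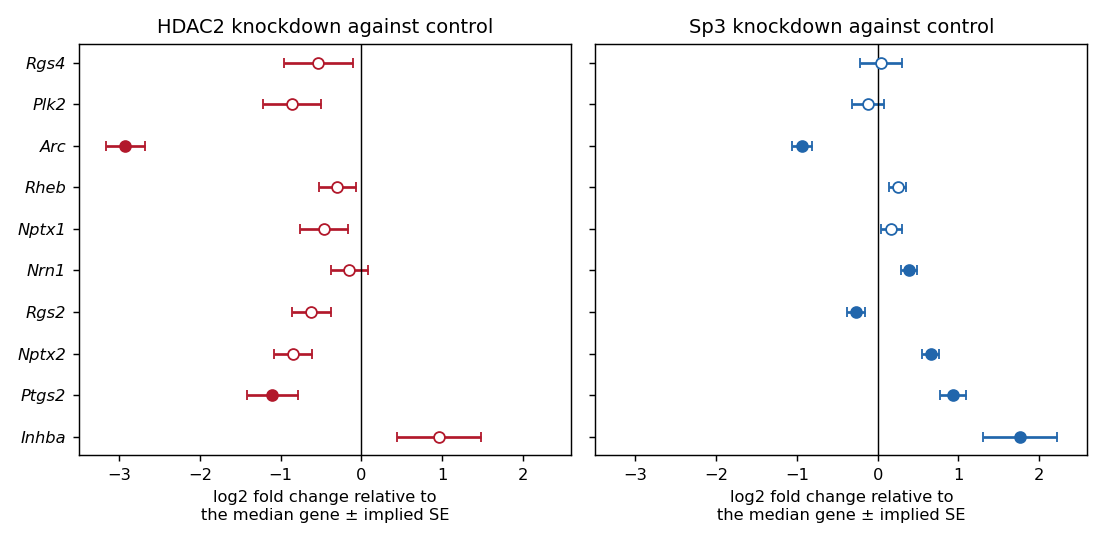
Log2 fold change of each gene relative to the median gene in HDAC2 knockdown (left) and Sp3 knockdown (right) against control, with bars of 1 implied standard error. Filled points passed both in the authors' deposited table and relative to the median gene, and 9 of 10 genes lie left of 0 in HDAC2 knockdown and 3 of 10 in Sp3 knockdown. Without centring these are 7, with Nrn1 and Rheb above 0, and 4, with Rgs4 below it.

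**Figure D3:**
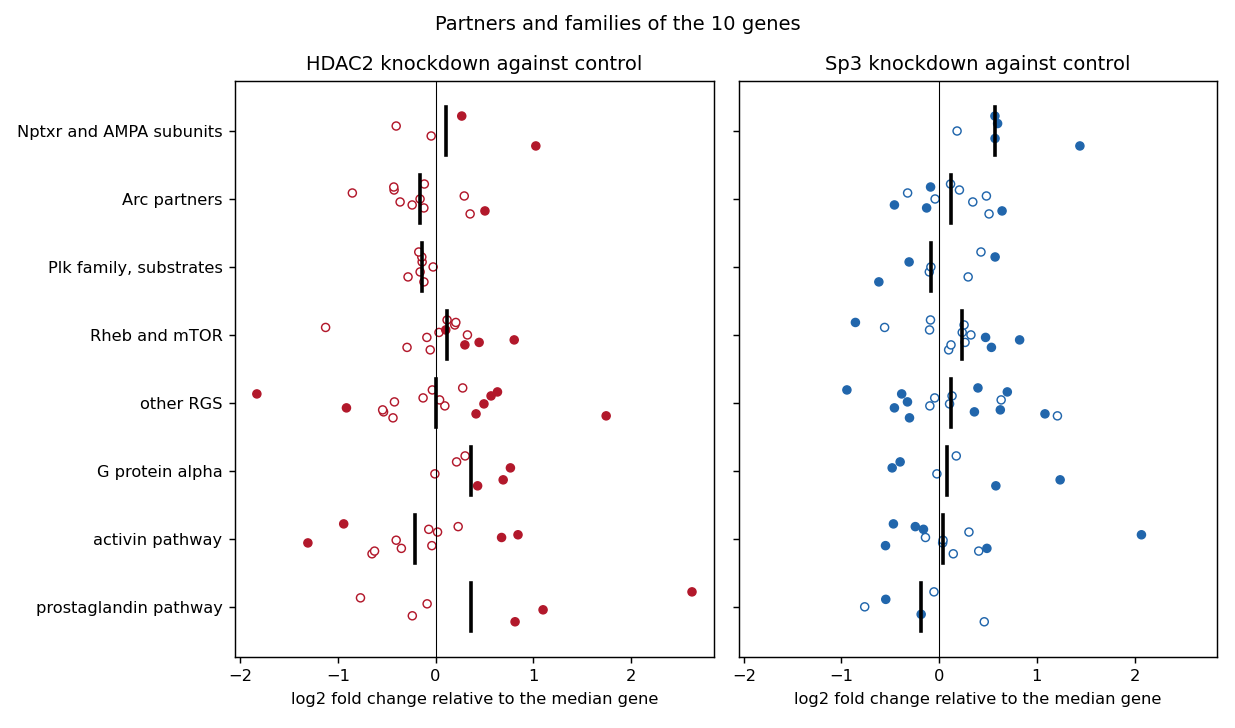
Relative log2 fold changes of genes that work with the 10 or belong to their families, one point per tested gene, in HDAC2 knockdown (left) and Sp3 knockdown (right). Filled points were called in the authors' deposited table and black bars are list medians, which run over -0.21 to 0.37 in HDAC2 knockdown and -0.18 to 0.57 in Sp3 knockdown.

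The knockdowns were then compared with each other, as the log2 fold change in HDAC2 knockdown minus that in Sp3 knockdown, in which the shared control cancels. The standard error used, the root of the summed squares, therefore overstates the error. Arc, Ptgs2 and Nptx2 were lower in HDAC2 than in Sp3 knockdown, 3 of the 10, and 0 were higher. Of 13277 genes with this test 2.16% were lower and 26.6% higher, or 6.87% and 7.86% relative to the median genes. With the authors' standard errors Ptgs2 differed by -1.59 ± 0.36 (adjusted p = 1.31e-04), Arc by -1.54 ± 0.28 (adjusted p = 7.25e-07) and Nptx2 by -1.05 ± 0.26 (adjusted p = 4.36e-04). Relative to the median genes the differences were -2.04, -1.99 and -1.50. The other 7 had adjusted p-values of 0.626 to 0.886, or 0.137 to 0.549 relative to the median genes. Their intervals are wide. That of Inhba ran over -2.18 to 0.57 relative to the median genes and that of Rgs2 over -0.87 to 0.16. Those of Rheb (-1.04 to -0.06) and Nrn1 (-1.03 to -0.05) left out 0 before adjustment over all genes.

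**Figure D4:**
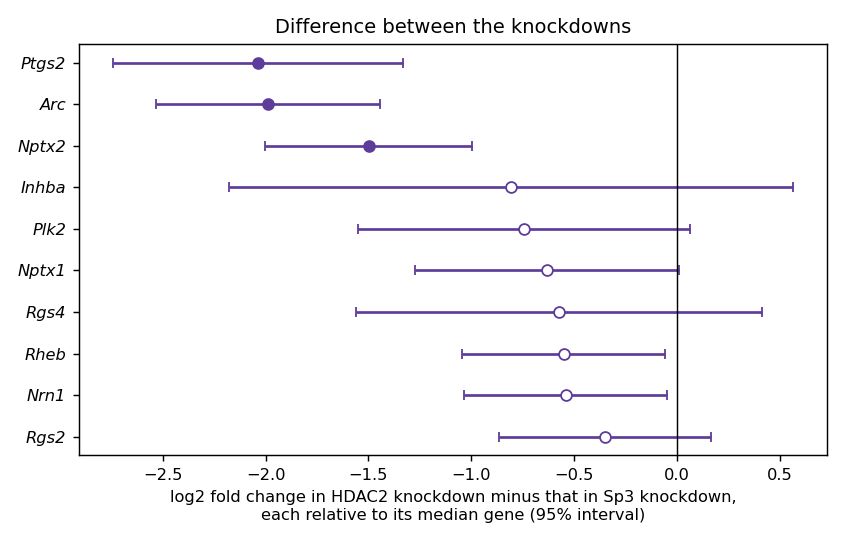
Relative log2 fold change in HDAC2 knockdown minus that in Sp3 knockdown for each gene, with 95% intervals from the summed standard errors. Filled points (Ptgs2, Arc and Nptx2) passed with and without centring, and all 10 relative differences lie below 0, where that of Rgs2 is 0.10 without centring. The share of all genes below 0 was not counted. The median pan-neuronal marker also stood lower in HDAC2 knockdown (-0.24 relative to the median gene) than in Sp3 knockdown (0.53).

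Other activity genes gave a frame for these values. The lists were chosen with earlier results of these data known. Of 19 tested activity transcription factors the authors' deposited tables called 12 lower and 0 higher in each knockdown, with 14 and 0, and 11 and 1, relative to the median gene. Junb (-1.82 ± 0.23 and -0.85 ± 0.12), Egr1 (-1.61 ± 0.26 and -0.72 ± 0.15) and Fos (-1.20 ± 0.23 and -0.95 ± 0.12) fell in both. Egr2 (-2.40 ± 0.26 and -0.08 ± 0.11), Egr3 (-1.49 ± 0.26 and 0.21 ± 0.13) and Nr4a2 (-0.99 ± 0.24 and 0.26 ± 0.16) fell in HDAC2 knockdown and passed in neither direction in Sp3 knockdown. Jun fell in Sp3 knockdown (-1.09 ± 0.12) and stood at -0.54 ± 0.26 in HDAC2 knockdown. Their median relative log2 fold change was -1.20 in HDAC2 and -0.55 in Sp3 knockdown, so Arc lay with or beyond them in both while the other 9 genes did not reach the list's median in HDAC2 knockdown. Of 28 other activity-induced genes the authors' deposited tables called 3 higher and 8 lower for HDAC2 knockdown (relative, 1 and 12), and 2 and 8 for Sp3 knockdown (relative, 3 and 8). Their medians were -0.63 and -0.07. Gadd45g (-2.12 ± 0.30 and -0.69 ± 0.14) and Dusp1 (-1.65 ± 0.24 and -0.61 ± 0.12) fell in both, and Pcsk1, a prohormone convertase, fell in HDAC2 knockdown (-1.38 ± 0.24) and stood at 0.09 ± 0.11 in Sp3 knockdown. Rasgrp1 rose in HDAC2 knockdown (0.83 ± 0.28) and stood at 0.08 ± 0.10 in Sp3 knockdown. Pcdh8 was lower in HDAC2 knockdown (-0.65 ± 0.06) and higher in Sp3 knockdown (0.25 ± 0.04). The abundant Vgf (-1.27 ± 0.52 and -0.58 ± 0.37), Scg2 (-0.75 ± 0.68 and -0.09 ± 0.48) and Syt4 (-0.59 ± 0.55 and 0.33 ± 0.36) passed in neither. Their standard errors were large, against medians of 0.26 in HDAC2 and 0.14 in Sp3 knockdown over genes of at least 1 FPKM.

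Nearness to the 10 genes was measured as the distance between the pairs of log2 fold changes, over 3 groups and 9345 genes with at least 5 FPKM in control. Both values of a pair share the control. The implied standard errors were 0.25 and 0.13 for Arc and 0.23 and 0.10 for Nptx2. Distances of 0.1 or less lie within such errors, and the order of near genes is uncertain. Arc had no gene within 0.1. Its nearest were Npas4 (0.37), 2010204K13Rik (0.42) and Fosb (0.49), and Npas4 and Fosb encode activity transcription factors. Nptx2 had 7 genes within 0.1, led by Gad2 (0.045) and Slc32a1 (0.062), which make and load the transmitter GABA, and by Bdnf (0.066), an activity-induced neurotrophin. Ptgs2 had none within 0.1, with Slc25a22 (0.17), Snord66 (0.21) and the cholesterol synthesis gene Fdps (0.21) nearest. Inhba had none either, with Lpl (0.17), Zfp180 (0.18) and Fam189a1 (0.22) nearest. The other 6 genes each had 38 to 163 genes within 0.1.

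Cell type markers moved with these results. In bulk cultures, fewer cells of a type and less RNA per cell cannot be told apart. Summed over 14 astrocyte markers the level was 2224 FPKM in HDAC2 knockdown and 659 in Sp3 knockdown, against 810 in control. Slc1a3 made 721, 212 and 173 FPKM of these and was called in neither knockdown. The abundant Slc1a2, Aldoc and Ndrg2 were not called in HDAC2 knockdown either. The authors' deposited tables called 8 of 12 tested markers higher and 0 lower in HDAC2 knockdown, and 0 of 13 higher and 7 lower in Sp3 knockdown. Over 14 oligodendrocyte lineage markers the sums were 452 and 131 against 226 in control, with 11 higher and 0 lower of 14, and 0 higher and 7 lower of 9. Over the 10 of 11 pan-neuronal markers measured they were 1551 and 1961 against 1585 in control. Their median relative log2 fold change was -0.24 in HDAC2 knockdown, where the authors' deposited table called 0 higher and 1 lower, and 0.53 in Sp3 knockdown, where it called 5 higher and 1 lower. Over 9 GABAergic markers the sums were 177 and 241 against 147 in control, and over 8 glutamatergic markers 399.8 and 367 against 329.7. In HDAC2 knockdown these sums rest on single genes. Gad1 had 74.3 FPKM in HDAC2 knockdown against 43.9 in control and Slc17a7 had 275 against 184, and neither was called. Relative to the median gene Gad2 (-0.80 ± 0.24), Slc32a1 (-0.88 ± 0.26) and the glutamate transporter gene Slc17a6 (-1.50 ± 0.24) were lower there. The GABAergic median was -0.26 in HDAC2 knockdown, with 1 of 7 tested called higher and 2 lower on this scale, and 0.63 in Sp3 knockdown, with 6 of 8 higher and 0 lower. The glutamatergic median was 0.02 with 0 of 8 higher and 1 lower, and 0.30 with 3 higher and 1 lower. Microglial markers were near 0, with sums of 2.37, 1.84 and 2.11 over 10 genes and Tyrobp and C1qc at 0 in all 3 groups, Trem2 also at 0 in HDAC2 knockdown, C1qb in both knockdowns and C1qa in Sp3 knockdown and control. The endothelial, mural and meningeal list summed to 43.2 and 52.7 against 29.7, of which Dcn made 38.4, 49.9 and 26.6, with Cldn5 at 0 in HDAC2 knockdown and Cdh5 at 0 in Sp3 knockdown. The part of these shifts in the results above was not tested.

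Set against the median pan-neuronal marker in place of the median gene, a scale chosen after the data were seen, Arc stood at -2.68 in HDAC2 and -1.47 in Sp3 knockdown. Ptgs2 stood at -0.86 and 0.40 and Inhba at 1.20 and 1.23, while the rise of Nptx2 in Sp3 knockdown shrank to 0.12 and Nrn1 turned to -0.14 there. In Sp3 knockdown Tsc1 stood at 0.002, Rptor at -0.06, Rasgrf1 at 0.04, Gnaq at 0.05, Acvr1 at -0.04 and Dnm2 at 0.11. Pcdh8 was at -0.29 there. Nptxr (0.91), Gna11 (0.70), Fst (1.54) and Mtor (0.29) stood further above 0. On this scale 3 of the 10 were lower and 0 higher in HDAC2 knockdown, beside 554 lower and 2656 higher among all 13569 tested genes. In Sp3 knockdown 5 were lower (Arc, Nptx1, Plk2, Rheb and Rgs2) and 2 higher (Ptgs2 and Inhba), beside 8913 lower and 527 higher among all 13619.

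**Figure D5:**
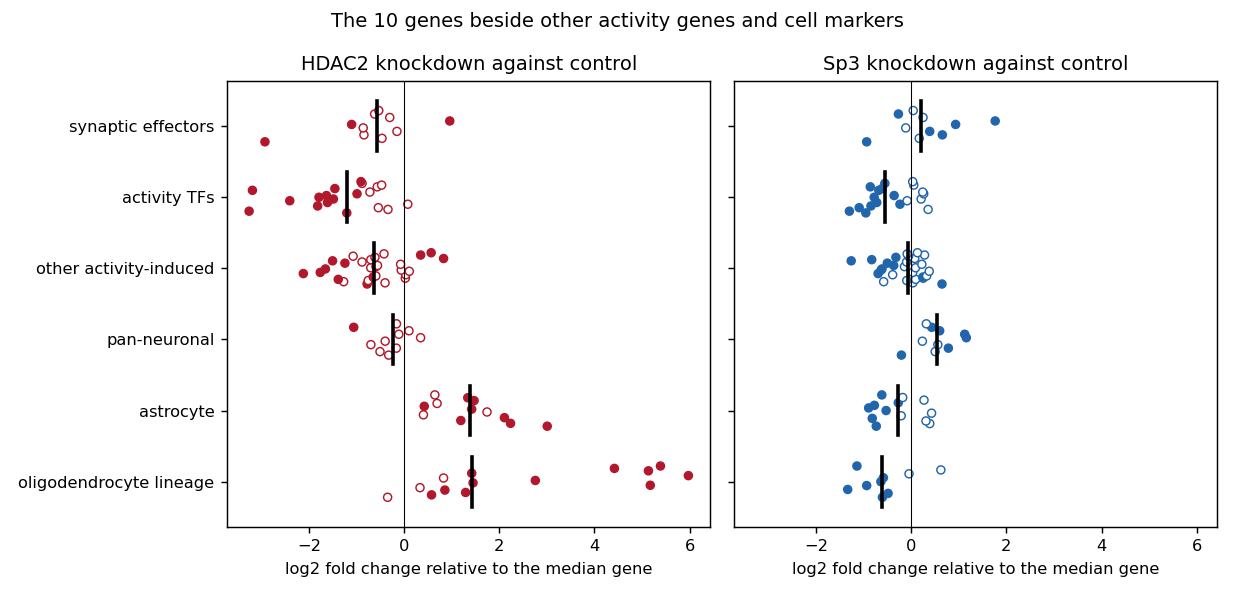
Relative log2 fold changes of the 10 synaptic effector genes (top) beside other activity genes and cell type markers, one point per tested gene, in HDAC2 knockdown (left) and Sp3 knockdown (right). Filled points were called in the authors' deposited table and black bars are medians, which for the effectors are -0.58 and 0.21.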

How the data were processed

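The members and gene lists were chosen with earlier results of these data known. Per the submitters' processing notes the authors used TopHat, Bowtie and Cuffdiff with mouse build mm9, with no version, and the sources used here give neither the annotation nor the strand setting. The 2 tables deposited by the authors hold, for each gene, FPKM per group, the log2 ratio of both, a score (the test statistic, of opposite sign), a p-value and a q-value. Control FPKM was equal in both for 100% of genes. Standard errors are the log2 fold change over the statistic, left out above 5. Two-sided normal p-values from the statistic lay within 2.79e-06 of the deposited p-values. Depth per library is unknown. The most common single ratio among genes under 0.3 FPKM was 0.939 for HDAC2 knockdown to control and 1.62 for Sp3 knockdown to control. Only 19 of 1817 and 48 of 2567 such genes held it, so it is not their typical change.

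Fold changes were shifted by their median, and the shifted and between-knockdown statistics given normal p-values and Benjamini-Hochberg adjustment (Python 3.11.15, SciPy 1.17.1, pandas 2.3.3). The code was run on simulated data whose noise was drawn from the same standard errors that the test uses. That run therefore could not check whether those errors are right. Named genes were the 10, direct paralogs, and of each list the 4 most abundant, or those called with a log2 fold change of at least 1 in size. The text names a part of these, and adds others, chosen after their values were seen, such as Dnm2, Ube3a, Gria1, Tsc1, Smad7 and Gnaq. The 3 nearest genes were taken in the plane of the fold changes. Coordinates are those of the tables, in mm9, and promoters are in GRCm38.p6. Map2 was not analysed here.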

Additional observations from a re-analysis of the deposited data

Results flagged for a closer look

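The effect on 3 genes differed between the knockdowns by a test of the difference itself, the log2 fold change in HDAC2 knockdown minus that in Sp3 knockdown, without centring. The difference was -1.54 for Arc, which had 8.07 FPKM in HDAC2 knockdown and 23.5 in Sp3 knockdown. For Nptx2, at 13.3 and 27.6 FPKM, it was -1.05. For Ptgs2, at 1.87 and 5.62 FPKM, it was -1.59. Over this test and the alternatives run for it the adjusted p ranged over 9.37e-11 to 7.25e-07 for Arc, 3.08e-07 to 4.36e-04 for Nptx2 and 8.46e-07 to 1.31e-04 for Ptgs2. The highest of each range was the value of the main test, so no alternative was harder on the p-value. Nptx2 and Ptgs2 lay on opposite sides of control, and Arc lay below it in both.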

How the results depend on the processing

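Of 40 recounts of called genes under other settings, 24 were within 1.5 times the reported count and 16 were not. The 2 lower calls in HDAC2 knockdown became 1 at q under 0.01 and 1 with p-values adjusted within the table, which lost Ptgs2. The 1 higher call, Inhba, became 0 with every other setting run except the 1.5-fold minimum. In Sp3 knockdown the 1.5-fold minimum left 1 lower and 2 higher, and centring on pan-neuronal markers gave 5 lower and 2 higher. A t distribution with 2 degrees of freedom left 0 in each direction in both knockdowns, and 2 and 0 genes of all those tested, so it could hardly call any gene. The 3 differences between knockdowns, and the absence of any in the other direction, were the same under all 4 alternatives. For these 3 genes none of the 4 gave a higher adjusted p than the main test, and only the threshold of 0.01 was stricter. The larger of the 2 standard errors, used in 1 of them, is always below the summed one. Centring on pan-neuronal markers and the t distribution were not among these 4, so whether the differences hold under either was not tested. On pan-neuronal centring the signs of Nptx1 (-0.36), Nrn1 (-0.14) and Rheb (-0.28) in Sp3 knockdown reversed, a shift that follows from the higher reference. No paired analysis was possible because the tables hold no value per library, and for the same reason no library could be left out. Depth per library is unknown, and Inhba was under 1 FPKM in control.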

Other observations

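Most of the 10 genes are short. The loci span 3488 bases (Arc) to 39539 bases (Rheb) in the deposited coordinates, and 9 of 10, all but Rheb, are below the median of 25741 bases over tested genes. The 6 promoters matched ranged from 47.7% G and C in Inhba to 70.0% in Rheb and Rgs2, around a median of 52.7% over all promoters. Among the 10, Inhba had the highest fold in both knockdowns, at 2.42 and 3.10 times its control level, and Arc the lowest in both.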
